A study of Mus musculus with 18 samples.

Results

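The genes described here are 8 regulators of early development: Isl1, Mesp1, Mesp2, Eomes and Tbx1, which mark mesoderm and heart progenitors, and Nanog, Zfp42 and Sox2, which mark pluripotent cells. They were taken from a list of names and not from their values, each has 1 probe set that names a single gene, and all 8 of 8 were found among the 19912 genes of the table. The study profiled cells of CD1 mice on Affymetrix mouse Gene 1.0 ST arrays, which measure RNA as a log2 intensity per gene. The 18 arrays fall into 6 groups of 3. They are GFP+ induced cardiomyocyte-like cells (iCMs) at 2 weeks and at 4 weeks of reprogramming, GFP- cells in which reprogramming failed at 2 weeks and at 4 weeks, neonatal cardiomyocytes (CM) and neonatal cardiac fibroblasts (CF). No group is a progenitor or a pluripotent cell, so the level that these probe sets would reach in such cells was not measured. The labels name neither the reprogramming factors nor the promoter that drives GFP, and nothing in them tells whether the 3 arrays of a group are separate cultures, so a p-value here reflects array-to-array spread, which may be technical.

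During gastrulation Eomes, a T-box factor, helps to turn on Mesp1 in the mesoderm that gives rise to the heart, and its neighbour Mesp2 acts mainly in somite formation. Isl1, a LIM homeodomain factor, and Tbx1, another T-box factor, mark the second heart field, a progenitor pool that adds cells to the growing heart tube. Nanog and Sox2 work with Pou5f1 (Oct4) to maintain pluripotency, and Zfp42 (Rex1) is a marker of that state in mouse embryonic stem cells. Whether iCMs pass through, or still hold, a progenitor or pluripotent state is the question that the levels of these genes at 2 and 4 weeks address; earlier times were not analysed here.

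The promoters of the 3 pluripotency genes are shown because each holds TTTGCAT, the core of the octamer that Pou5f1 binds, and they were picked for that match. The sequences are the 250 bases before the gene start, 5′ to 3′ on the gene's strand, from RefSeq with the build GRCm38.p6, and capitals mark the octamer core (on the opposite strand in Sox2).
Nanog, chr6:122707239-122707488, plus strand: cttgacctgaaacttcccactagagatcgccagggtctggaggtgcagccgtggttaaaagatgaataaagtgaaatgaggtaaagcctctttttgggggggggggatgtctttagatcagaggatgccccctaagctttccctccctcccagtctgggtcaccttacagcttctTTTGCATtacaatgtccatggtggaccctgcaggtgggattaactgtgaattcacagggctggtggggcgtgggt
Sox2, chr3:34649745-34649994, plus strand: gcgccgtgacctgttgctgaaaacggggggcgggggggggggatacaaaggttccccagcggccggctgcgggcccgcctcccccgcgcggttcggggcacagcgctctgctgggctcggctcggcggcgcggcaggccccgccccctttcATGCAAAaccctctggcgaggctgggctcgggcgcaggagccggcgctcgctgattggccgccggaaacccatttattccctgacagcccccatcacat
Zfp42, chr8:43307010-43307259, minus strand: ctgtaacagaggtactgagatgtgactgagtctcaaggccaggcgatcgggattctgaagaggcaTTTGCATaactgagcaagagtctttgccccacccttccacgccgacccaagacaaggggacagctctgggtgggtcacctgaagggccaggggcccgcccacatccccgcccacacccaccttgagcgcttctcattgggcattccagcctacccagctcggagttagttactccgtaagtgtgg

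The letters TTTGCAT, searched on both strands, lie in 4.63% of the 32851 RefSeq promoter windows (250 bases before to 50 after a gene start) and in those of 3 of the 8 genes. TCACACCT, a site of T-box factors such as Eomes, lies in 1.28% of the windows and, among the 8 genes, in that of Mesp1, where it begins 5 bases after the gene start. The 30 bases around it, with the site in capitals, are shown for the step from Eomes to Mesp1.
Mesp1, chr7:79793567-79793596, minus strand: aggggcccgctTCACACCTagggctcagga
A match in letters is a description of the sequence and does not show binding. The motifs do not overlap each other and were chosen after the values had been seen.

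Background on these arrays was judged in 2 ways. The limit of 6.38 log2 is the lowest 25th percentile of any array over the 19912 genes. The second yardstick was 1183 genes of olfactory and vomeronasal receptors, which serve in sensory neurons and here stand for genes with no known use in most heart cells: their values had a median of 5.07 log2 and a 95th percentile of 6.97. Their 5th percentile was 3.30, so values of genes of this kind spread over more than 3 log2 units. A level inside that spread does not by itself separate a gene that is on from one that is off.

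Cardiomyocyte genes give the contrast for scale. Actc1, the cardiac alpha-actin, stood at 13.12 ± 0.14 log2 in GFP+ cells at 2 weeks and 13.33 ± 0.06 at 4 weeks, against 7.14 ± 0.29 in CF (SD, n = 3 each). Myh6, the alpha myosin heavy chain, was 3.95 log2 higher than in CF at 2 weeks and 5.29 at 4 weeks. Mef2c, a transcription factor of muscle, was higher than in CF by 1.09 and 1.13. Its mean in CM (10.24) was below that in CF (10.65), so it does not mark cardiomyocytes here. Averaged over 6 cardiomyocyte markers, the arrays read 11.04 in GFP+ cells at 2 weeks, 11.92 in GFP+ cells at 4 weeks, 8.28 and 8.41 in the GFP- cells of these times, 13.08 in CM and 7.57 in CF. Tbx5 and Gata4, heart transcription factors that the field uses for reprogramming along with Mef2c, were higher than in CF by 4.91 ± 0.11 and 2.07 ± 0.13 log2 at 2 weeks (SE). For Tbx5, Gata4 and Mef2c alike, the labels leave it unsaid whether copies brought in with the factors are read too. The mean of 6 macrophage markers was 9.76 and 9.38 in GFP+ cells at 2 and 4 weeks, 12.03 and 12.11 in GFP- cells, 6.61 in CM and 11.89 in CF, and all 6 were above background in every group but CM, where 4 were. In bulk RNA, fewer cells that express a gene and less of it per cell cannot be told apart.

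The 8 genes read low in all groups, the highest being Mesp2 in GFP+ cells at 2 weeks, at percentile 44.2 of all genes. None was called higher in GFP+ cells than in both GFP- cells and CF at either time in the fit with equal array weights. With array weights estimated by limma, both Eomes and Tbx1 were called higher than both at 4 weeks, Eomes by 0.38 log2 over GFP- cells and 0.40 over CF (adjusted p = 0.00497 and 0.00164) and Tbx1 by 0.19 and 0.23 (adjusted p = 0.0365 and 0.00692). Group means above the limit of 6.38 numbered 3 of 8 in GFP+ cells at 2 weeks, 4 at 4 weeks, 4 and 3 in GFP- cells at 2 and 4 weeks, 4 in CM and 3 in CF. Over all genes 76.7% (GFP+ cells, 2 weeks), 77.1% (GFP+ cells, 4 weeks) and 76.5% (CF) lay above it. Above the 95th percentile of the sensory receptor genes lay 2 of 8 in GFP+ cells at 2 weeks (Mesp2 and Tbx1), 1 at 4 weeks (Mesp2), 1 in each GFP- group, 2 in CM and 1 in CF. Tbx1, Mesp2 and Nanog were above 6.38 in all 6 groups, while Eomes, Zfp42 and Sox2 were below it in all 6. Isl1 was above it in CM alone, and Mesp1 in GFP+ cells at 4 weeks and GFP- cells at 2 weeks.

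**Figure D1:**
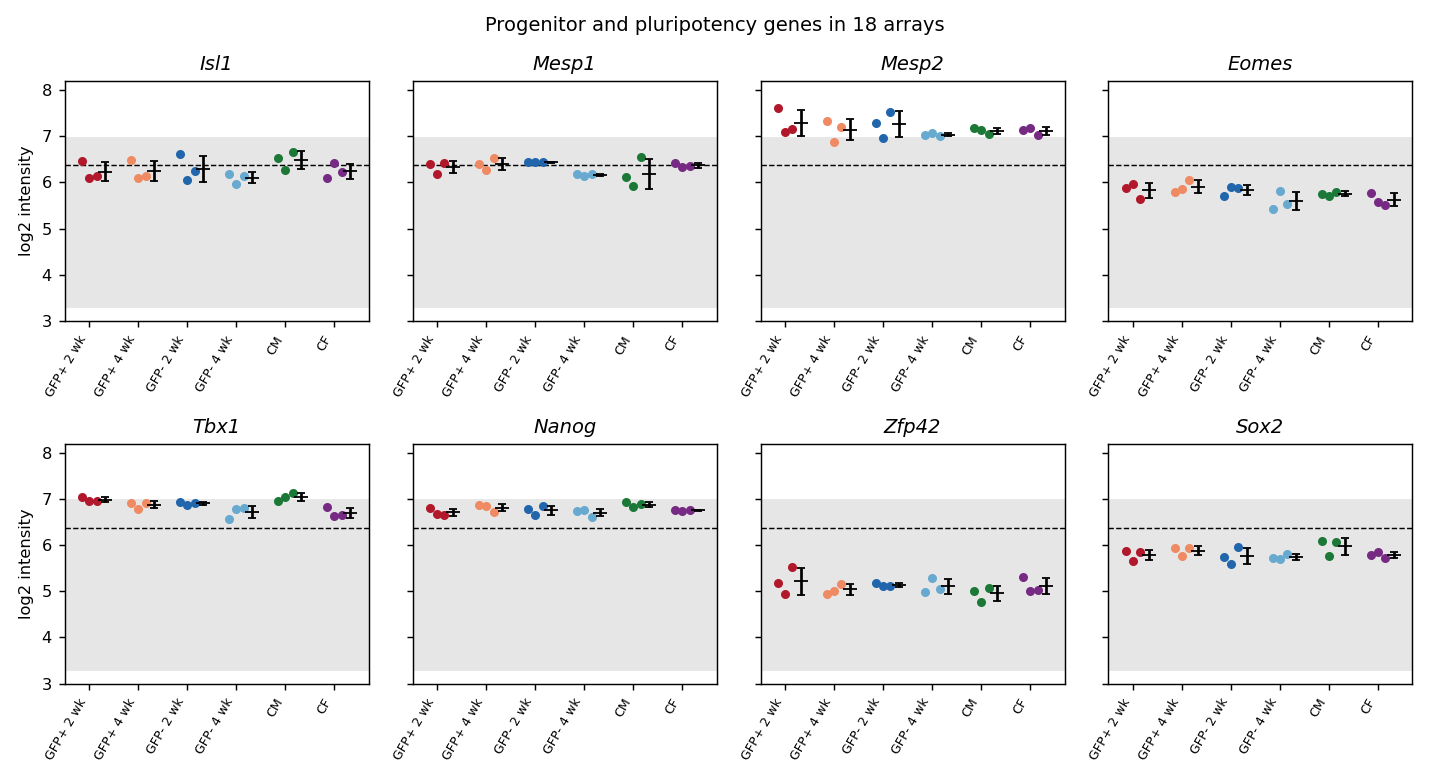
Log2 intensity of the 8 genes in each of 18 arrays (points), with group means and SD (black, n = 3) for GFP+ cells and GFP- cells at 2 and 4 weeks, CM and CF. The grey band spans the 5th to 95th percentile of 1183 sensory receptor genes (3.30 to 6.97), the dashed line is the limit of 6.38, and in each panel the 6 groups lie within a range of 0.17 to 0.38 log2 of group means.

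Across the 6 groups, the group means of 1 gene spanned from 0.17 (Nanog) to 0.38 log2 (Isl1), with a median span of 0.27 over the 8 genes. The span had the same median, 0.27, over the sensory receptor genes, and 0.46 over all genes. By limma's moderated F test, 1 of 8 genes (Tbx1) differed among the groups at an adjusted p under 0.05, where 59.7% of all genes and 11.5% of the sensory receptor genes did. The same 1 of 8 had an unadjusted p under 0.05. After Tbx1 (adjusted p = 0.00683) the lowest adjusted p was that of Eomes (0.109), and the other 6 genes had values from 0.223 (Mesp1) to 0.556 (Zfp42).

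Isl1 marks the second heart field and is the gene most used to trace heart progenitors. Its 3 arrays read 6.47, 6.10 and 6.13 log2 in GFP+ cells at 2 weeks, 6.49, 6.10 and 6.15 in GFP+ cells at 4 weeks, 6.61, 6.05 and 6.24 in GFP- cells at 2 weeks, and 6.19, 5.98 and 6.15 in GFP- cells at 4 weeks. In CM they read 6.52, 6.27 and 6.66, and in CF 6.09, 6.42 and 6.23. All groups overlap but GFP- cells at 4 weeks, whose arrays lie below those of CM, the highest single values belong to CM and to 1 array of GFP- cells at 2 weeks, and the CM mean of 6.48 ± 0.20 (SD) is the only one above the limit. GFP+ cells differed from CF by -0.02 ± 0.15 log2 at 2 weeks (SE, 95% interval -0.32 to 0.29) and by 0.00 ± 0.15 at 4 weeks (-0.31 to 0.31), with adjusted p of 0.953 and 0.999 by limma. Against GFP- cells the differences were -0.07 ± 0.15 at 2 weeks and 0.14 ± 0.15 at 4 weeks. With array weights Isl1 was called lower than in GFP- cells at 2 weeks (-0.32 log2, limma adjusted p = 0.0284).

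Tbx1 acts in the second heart field and the pharyngeal mesoderm. It read 7.05, 6.96 and 6.95 log2 in GFP+ cells at 2 weeks, 6.92, 6.79 and 6.92 in GFP+ cells at 4 weeks, 6.93, 6.88 and 6.91 in GFP- cells at 2 weeks, and 6.57, 6.79 and 6.80 in GFP- cells at 4 weeks. The CM arrays read 6.97, 7.04 and 7.13, and the CF arrays 6.83, 6.63 and 6.65. Both CM and the 2-week GFP+ cells lie above CF without overlap, GFP- cells at 2 weeks do so as well, and the 4-week GFP+ arrays overlap CF. Tbx1 was 1.22-fold higher in GFP+ cells at 2 weeks than in CF (0.28 ± 0.09 log2, SE, limma adjusted p = 0.0143) and 1.27-fold higher in CM than in CF (0.34 ± 0.09, adjusted p = 0.00279). At 4 weeks the difference of GFP+ cells from CF was 0.17 ± 0.09 (adjusted p = 0.156). The 2-week call was lost when replicate 1 of those GFP+ cells was left out (adjusted p = 0.0524), and likewise for replicate 2 (0.0707) or 3 (0.0609) of CF. GFP+ cells did not pass the test against GFP- cells (0.08 ± 0.09 at 2 weeks and 0.16 ± 0.09 at 4 weeks, adjusted p = 0.555 and 0.176), and against CM they differed by -0.06 ± 0.09 at 2 weeks and -0.17 ± 0.09 at 4 weeks.

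Over all 18 arrays, the genes whose profile was most like that of Tbx1 were the transcript C030006K11Rik, the microRNA gene Mir301b and Sel1l2, with Pearson r = 0.869, 0.867 and 0.866 among 11877 genes that differ between groups. Sel1l2 read 5.46 log2 in GFP+ cells at 2 weeks, 5.58 in CM and 5.31 in CF, below the limit in each of these groups. Only Tbx1 met the rule for such a search, which required a called difference and a group above the limit.

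Mesp1 and Mesp2, a pair of basic helix-loop-helix factors encoded next to each other, stand at the start of heart and somite mesoderm. Mesp1 averaged 6.33 ± 0.13 log2 in GFP+ cells at 2 weeks, 6.40 ± 0.14 in GFP+ cells at 4 weeks, 6.44 ± 0.01 in GFP- cells at 2 weeks, 6.17 ± 0.03 in GFP- cells at 4 weeks, 6.19 ± 0.32 in CM and 6.37 ± 0.05 in CF (SD, n = 3 each). Its GFP+ means lie within 0.04 of that of CF. Relative to CF the differences were -0.04 ± 0.12 at 2 weeks and 0.03 ± 0.12 at 4 weeks (SE, limma adjusted p = 0.852 and 0.9). Against GFP- cells they were -0.11 ± 0.12 and 0.23 ± 0.12 (limma adjusted p = 0.569 and 0.149). The GFP+ arrays lay below the GFP- arrays at 2 weeks and above them at 4 weeks, without overlap. With array weights the 4-week difference was called (0.32 log2, limma adjusted p = 0.00731). Mesp2 was above the 95th percentile of the receptor genes in every group, at 7.29 ± 0.28 in GFP+ cells at 2 weeks, 7.14 ± 0.23 at 4 weeks and 7.12 ± 0.08 in CF (SD). A level this high in fibroblasts and cardiomyocytes (7.12 ± 0.07) alike gives no contrast between groups. Mesp2 differed from CF by 0.17 ± 0.14 at 2 weeks and 0.03 ± 0.14 at 4 weeks (SE).

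Eomes, the T-box factor upstream of Mesp1, read 5.88, 5.96 and 5.64 log2 in GFP+ cells at 2 weeks, 5.79, 5.86 and 6.06 in GFP+ cells at 4 weeks, 5.71, 5.91 and 5.88 in GFP- cells at 2 weeks, and 5.43, 5.81 and 5.54 in GFP- cells at 4 weeks. The CM arrays read 5.76, 5.71 and 5.80, and the CF arrays 5.78, 5.59 and 5.51. Every array is below the limit. At 4 weeks the GFP+ arrays lie above CF without overlap and overlap the GFP- arrays, of which 1 (5.81) exceeds the lowest of them. Eomes passed the test in GFP+ against GFP- cells at 4 weeks (0.31 ± 0.11 log2, SE, limma adjusted p = 0.0374), a difference between values that are both not above background, so no fold is given. The call was lost under 8 of 15 other settings (adjusted p from 0.00497 to 0.183), among them quantile normalization (0.114). The others include the fits in which replicate 2 (0.055) or 3 (0.181) of GFP+ cells, or replicate 1 (0.183) or 3 (0.107) of GFP- cells, was left out. Against CF the differences were 0.20 ± 0.11 at 2 weeks and 0.28 ± 0.11 at 4 weeks (adjusted p = 0.187 and 0.0693). Eomes is also used by T and natural killer cells. Of 8 markers of those cells 4 were above the limit in each group, with array means of 6.21 to 6.44 in GFP+ cells at 4 weeks and 6.19 to 6.24 in GFP- cells at 4 weeks, while Ncr1, Klrb1c, Cd3g and Gzmb were below it in all groups. Their part in the result was not tested.

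Nanog, the homeodomain factor of pluripotency, read 6.80, 6.68 and 6.64 log2 in GFP+ cells at 2 weeks, 6.86, 6.85 and 6.72 in GFP+ cells at 4 weeks, 6.93, 6.83 and 6.88 in CM, and 6.75, 6.75 and 6.77 in CF. Its GFP- arrays ran from 6.65 to 6.84 at 2 weeks and from 6.61 to 6.77 at 4 weeks. GFP+ cells overlap CF at both times, and the highest group is CM. The differences from CF were -0.05 ± 0.08 at 2 weeks (SE, 95% interval -0.22 to 0.12) and 0.05 ± 0.08 at 4 weeks (-0.11 to 0.22), with adjusted p of 0.712 and 0.703 by limma. Nanog had the smallest span over groups of the 8 genes, 0.17 log2. Sox2 and Zfp42, whose promoters hold the octamer core too, had spans of 0.24 and 0.26. A link between the core and the span was not tested.

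Sox2, an HMG-box factor shared by pluripotent and neural cells, averaged 5.79 ± 0.11 log2 in GFP+ cells at 2 weeks, 5.88 ± 0.10 at 4 weeks, 5.98 ± 0.18 in CM and 5.79 ± 0.06 in CF (SD, n = 3 each). Zfp42, a zinc finger protein, averaged 5.22 ± 0.29 in GFP+ cells at 2 weeks, 5.04 ± 0.11 at 4 weeks, 4.95 ± 0.16 in CM and 5.11 ± 0.17 in CF. Both genes were below the limit in every group, and Zfp42 sat at percentile 54.6 of the sensory receptor genes in 2-week GFP+ cells and at 52.3 in CF. The differences of GFP+ cells from CF were 0.00 ± 0.10 and 0.09 ± 0.10 for Sox2 at 2 and 4 weeks and 0.10 ± 0.13 and -0.08 ± 0.13 for Zfp42 (SE, none called by limma with equal array weights). With array weights, Zfp42 was called higher than in CF at 2 weeks (0.31 log2, limma adjusted p = 0.031), between means that are both below the limit. Sox2 is also a gene of Schwann cells and neural crest, of whose markers 4 were measured, all above the limit, with array means of 6.95 to 7.14 in GFP+ cells at 2 weeks and 6.92 to 7.02 in CF. Only 1 of the 4 was above the 95th percentile of the sensory receptor genes in either group.

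**Figure D2:**
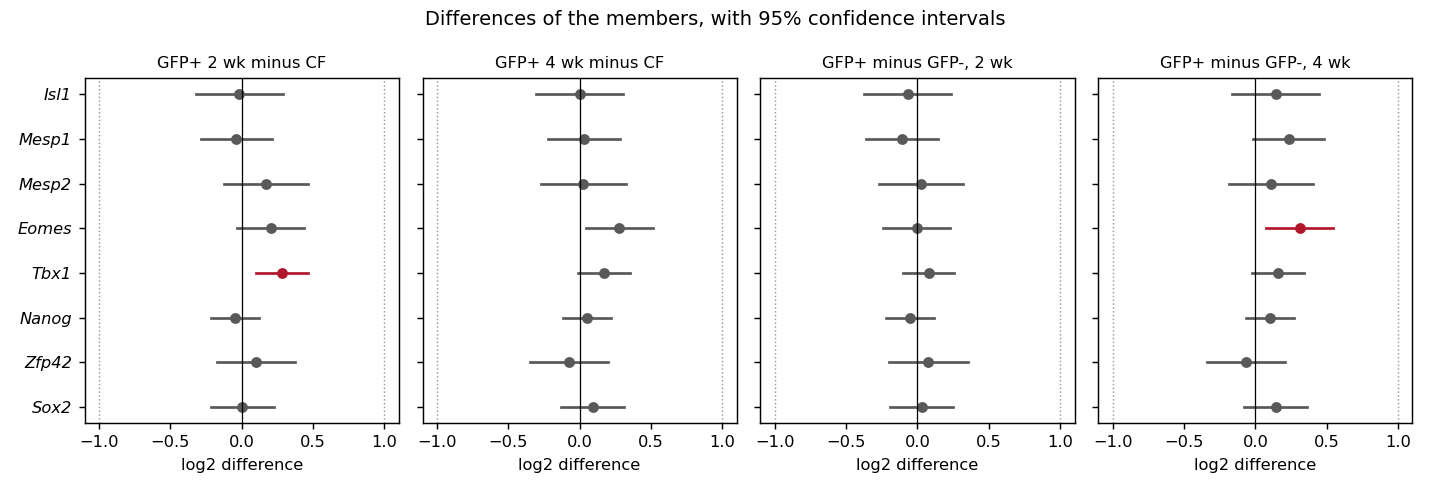
Log2 differences (points) with 95% confidence intervals (lines) of the 8 genes in 4 comparisons, GFP+ cells minus CF and GFP+ minus GFP- cells at 2 and 4 weeks; red marks an adjusted p under 0.05 and dotted lines a 2-fold change. Tbx1 at 2 weeks (0.28) and Eomes at 4 weeks (0.31) are called, and no interval reaches a 2-fold change, the highest bound being 0.55.

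Counted by comparison, 1 of 8 genes was called in GFP+ cells at 2 weeks against CF, where 33.3% of all genes were, and 0 of 8 at 4 weeks against CF, where 29.5% were (limma, 1 of 8 at an unadjusted p under 0.05, and 2 with array weights). Against GFP- cells, 0 of 8 were called at 2 weeks, with 34.5% of all genes (0 of 8 at an unadjusted p under 0.05, and 1 with array weights), and 1 of 8 at 4 weeks, with 34.2%. From 2 to 4 weeks, 0 of 8 were called in GFP+ cells, where 11.5% of all genes were, and 0 of 8 in GFP- cells, where 17.4% were (limma, 0 and 3 at an unadjusted p under 0.05, and 1 and 3 with array weights). GFP- cells against CF gave 0 of 8 at 2 weeks (22.7% of all genes) and 0 of 8 at 4 weeks (11.5%), with 1 and 0 at an unadjusted p under 0.05 by limma and 1 and 0 with array weights. GFP+ cells against CM gave 0 of 8 at 2 weeks (42.1%) and 0 of 8 at 4 weeks (35.1%), with 1 and 0 at an unadjusted p under 0.05 by limma and 2 and 1 with array weights. CM against CF gave 1 of 8 (41%), which is Tbx1. In the fit with equal array weights, each share called at an adjusted p under 0.05 lies below that of all genes. Array weights raised the calls over all genes too, both in GFP+ cells against CF or GFP- cells and from 2 to 4 weeks. From 2 to 4 weeks these calls numbered 5985 against 2297 in GFP+ cells and 6087 against 3465 in GFP- cells. The counts with array weights are to be read against that larger background. The comparisons share groups and are not independent of each other. The change from 2 to 4 weeks in GFP+ cells minus that in GFP- cells was called for 0 of 8 genes, and for 3.94% of all genes (0 of 8 at an unadjusted p under 0.05, no other tool run).

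A 2-fold rise of any of the 8 genes in GFP+ cells over CF lies outside the 95% intervals. The highest upper bound was 0.47 log2 (1.38-fold, Mesp2) at 2 weeks and 0.51 (1.43-fold, Eomes) at 4 weeks. In the same comparisons 602 and 587 genes were called at least 2-fold higher. Against GFP- cells the highest bounds were 0.35 (Zfp42) at 2 weeks and 0.55 (Eomes) at 4 weeks. These bounds hold for the intensity scale, on which probe sets near background understate a change in RNA. The median difference over the 8 genes was 0.05 at 2 weeks and 0.04 at 4 weeks, beside 0.03 and 0.02 over all genes and 0.05 and 0.03 over the sensory receptor genes.

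Small movements of the 8 genes ran with those of the sensory receptor genes. GFP- cells at 4 weeks had the lowest mean in 6 of the 8 genes and CM the highest in 4. The mean of the 8 genes was 6.15 ± 0.04 log2 in GFP- cells at 4 weeks, against 6.30 ± 0.09 in GFP- cells at 2 weeks (SD, n = 3 each). The median of the receptor genes was 5.03 ± 0.03 and 5.10 ± 0.07 in those 2 groups. Across the 18 arrays the 2 measures correlated with Pearson r = 0.798 and Spearman rho = 0.744, and r = 0.683 without the 2 arrays farthest in receptor median. Each point shares its array and normalization, so this is given as a description, and the part of this common movement in the results was not tested. With each array centred on its receptor genes, 0 of 8 genes differed among the groups by the F test (Tbx1, adjusted p = 0.052), and Eomes was not called at 4 weeks (0.28 log2, adjusted p = 0.0876).

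**Figure D3:**
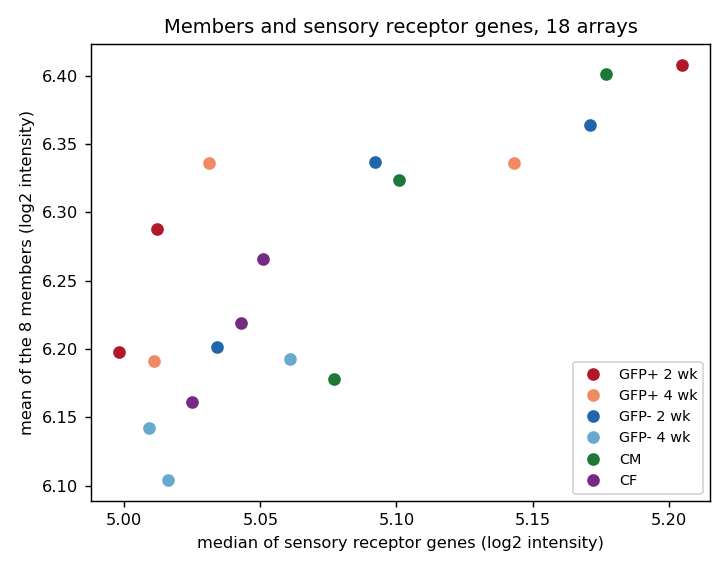
Mean log2 intensity of the 8 genes (vertical axis) against the median of 1183 sensory receptor genes (horizontal axis) in each of 18 arrays, coloured by group. The arrays high in one are high in the other (r = 0.798), and 2 of the 3 arrays of 4-week GFP- cells are among the lowest on both axes.

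The other genes of these states were read from 3 lists. Of 12 genes of the primitive streak and nascent mesoderm, 11 were measured, and 0 were called in GFP+ cells against CF at 2 weeks or at 4 weeks by limma, with 0 at an unadjusted p under 0.05 at either time. Among all genes 17.4% were higher and 15.8% lower at 2 weeks, and 14.3% higher and 15.2% lower at 4 weeks. The differences of the streak genes ran from -0.11 to 0.22 log2 at 2 weeks and from -0.19 to 0.18 at 4 weeks, with a median of 0.04 and -0.02. Mixl1, a homeobox gene of the streak, was lower in GFP+ than in GFP- cells at 2 weeks (6.98 against 7.53, -0.55 ± 0.12, SE, adjusted p = 0.000733) and at 4 weeks (6.73 against 7.14, -0.40 ± 0.12, adjusted p = 0.0103). Without replicate 2 of the GFP- cells the 4-week call of Mixl1 was lost (adjusted p = 0.0608). Among these genes Mixl1 was the only one called in either comparison of GFP+ with GFP- cells.

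The list of cardiac mesoderm and heart field genes held 20 measured of 22. Against CF, 3 of 20 were higher and 5 lower in GFP+ cells at 2 weeks, and 3 were higher and 6 lower at 4 weeks, with a median difference of 0.03 and -0.03 (all genes, 17.4% higher and 15.8% lower at 2 weeks, 14.3% and 15.2% at 4 weeks). Smarcd3, Tbx20 and Hcn4 were higher at both times. Smarcd3 (Baf60c), a heart subunit of the BAF chromatin complex, read 9.17, 9.27 and 9.44 log2 in GFP+ cells at 2 weeks and 9.27, 9.56 and 9.51 at 4 weeks, against 8.08, 8.10 and 8.06 in CF (1.21 ± 0.09 and 1.37 ± 0.09, SE, adjusted p = 1.29e-09 and 1.67e-10). Its GFP+ arrays lie apart from CF and near CM (9.21, 9.20 and 9.08). Tbx20, a T-box factor of heart muscle, was higher by 0.78 ± 0.15 at 2 weeks and 1.15 ± 0.15 at 4 weeks, and Hcn4, a pacemaker channel, by 0.44 ± 0.10 and 0.50 ± 0.10. The Hcn4 means of GFP+ cells, 7.75 at 2 weeks and 7.81 at 4 weeks, were above those of CM (7.45) and CF (7.31). Whether these genes reflect a progenitor or a differentiated state was not tested. Nkx2-5, the homeobox gene of early and mature heart muscle, did not pass the test (-0.12 ± 0.11 and 0.14 ± 0.11, adjusted p = 0.451 and 0.4). Its means in CM (8.48) and CF (8.06) lay close together, so its probe set leaves little room for a difference between them. The missing call therefore does not show that GFP+ cells lack Nkx2-5.

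Lower against CF at both times were Pdgfra, Bmp4, Aldh1a2 and Fgf10, with Eya1 at 2 weeks (-0.59) and Foxc2 (-0.44) and Osr1 (-0.40) at 4 weeks. Pdgfra, a receptor of mesoderm and of fibroblasts, averaged 8.15 log2 in GFP+ cells at 2 weeks and 7.52 at 4 weeks, against 10.69 in CF (-2.54 ± 0.12 and -3.18 ± 0.12, SE, adjusted p = 3.76e-12 and 1.05e-13). Bmp4, a ligand that patterns mesoderm, was lower by -0.99 log2 at 2 weeks and -1.28 at 4 weeks. Aldh1a2, the enzyme that makes retinoic acid, differed by -1.07 and -0.97, and Fgf10, a growth factor of the second heart field, by at least -1.04 at 2 weeks, where its GFP+ mean of 6.36 is below the limit, and by -1.03 at 4 weeks. All 6 fibroblast markers other than Pdgfra were lower at both times, and their mean was 9.17 and 8.52 in GFP+ cells at 2 and 4 weeks against 10.92 in CF, with all of them above the limit. Their part in these differences was not tested. Against GFP- cells, 8 of 20 genes were higher and 2 lower at 2 weeks, and 3 were higher and 6 lower at 4 weeks (all genes, 16.2% and 18.4% at 2 weeks, 17.2% and 17.1% at 4 weeks). Kdr, a receptor of mesoderm and of endothelium, was lower in GFP+ than in GFP- cells at 2 weeks (6.79 against 7.65, adjusted p = 7.33e-05), beside 4 of 5 endothelial markers, whose mean was 6.77 against 7.90.

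Among the other pluripotency genes 29 of 30 were measured. Against CF, 5 of 29 were higher and 3 lower in GFP+ cells at 2 weeks, and 4 were higher and 2 lower at 4 weeks, with a median difference of 0.08 and 0.07. Among all genes 17.4% were higher and 15.8% lower at 2 weeks, and 14.3% and 15.2% at 4 weeks, so the share called higher was near that of all genes. Pou5f1, the partner of Sox2 and Nanog, read 6.28, 6.16 and 6.38 log2 in GFP+ cells at 2 weeks and 6.33, 6.30 and 6.22 at 4 weeks, against 6.05, 6.14 and 6.04 in CF. Its mean was below the limit in all 6 groups, its GFP+ arrays lay above CF without overlap, and the differences of 0.20 ± 0.12 and 0.20 ± 0.12 (SE) did not pass the test (limma adjusted p = 0.24 and 0.246). CF had the lowest Pou5f1 mean (6.08), and GFP- cells at 2 weeks (6.35) and CM (6.36) stood above GFP+ cells (6.27 and 6.28). GFP- cells at 4 weeks were at 6.17. The genes called higher at both times were Tet1, Klf5, Tbx3 and Tfcp2l1, and Klf4 was called at 2 weeks (0.34 ± 0.13, adjusted p = 0.0441). Tet1, a dioxygenase that oxidises 5-methylcytosine in DNA, read 8.50, 8.82 and 8.73 in GFP+ cells at 2 weeks and 9.04, 9.18 and 9.07 at 4 weeks, against 10.93, 10.81 and 10.80 in CM and 7.39, 6.84 and 6.99 in CF. It lay between CF and CM, higher than CF by 1.61 ± 0.15 and 2.02 ± 0.15 (adjusted p = 2.81e-08 and 8.78e-10).

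Klf5, a zinc finger factor of stem cells and of remodelling muscle, was highest in GFP+ cells, at 9.06 log2 at 2 weeks and 8.80 at 4 weeks, against 7.68 in CM and 7.55 in CF (1.51 ± 0.11 and 1.25 ± 0.11 over CF, SE, adjusted p = 1.05e-09 and 1.31e-08). Tbx3, a T-box factor of stem cells and of the cardiac conduction system, was higher than CF by 1.05 ± 0.14 and 1.00 ± 0.14 and stood at 8.30 in CM. The mean of 5 epicardial markers was also highest in GFP+ cells, at 10.35 and 9.91 at 2 and 4 weeks, against 8.56 and 8.14 in GFP- cells, 7.43 in CM and 8.41 in CF, with all 5 above the limit in every group, and its part in these differences was not tested. Klf2, a zinc finger factor shared with endothelium and macrophages, was lower by -0.84 ± 0.09 and -0.85 ± 0.09, beside 6 of 6 macrophage markers that were lower at both times. Against GFP- cells, Dppa3 (Stella), a gene of early embryos and germ cells, was lower by at least 2.23-fold at 2 weeks and 2.04-fold at 4 weeks, since its GFP+ means of 6.29 and 6.34 are below the limit. The GFP- means of Dppa3 were 7.54 and 7.41. These values are from the brighter of its 2 probe sets, and with the mean of both the differences were -0.87 and -0.67 log2 (adjusted p = 0.00024 and 0.00302). Tet1, Klf5 and Tbx3 were higher against GFP- cells as well (1.64, 1.23 and 0.90 at 2 weeks). In those comparisons 5 of 29 were higher and 4 lower at 2 weeks (all genes, 16.2% and 18.4%), and 6 higher and 3 lower at 4 weeks (17.2% and 17.1%).

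**Figure D4:**
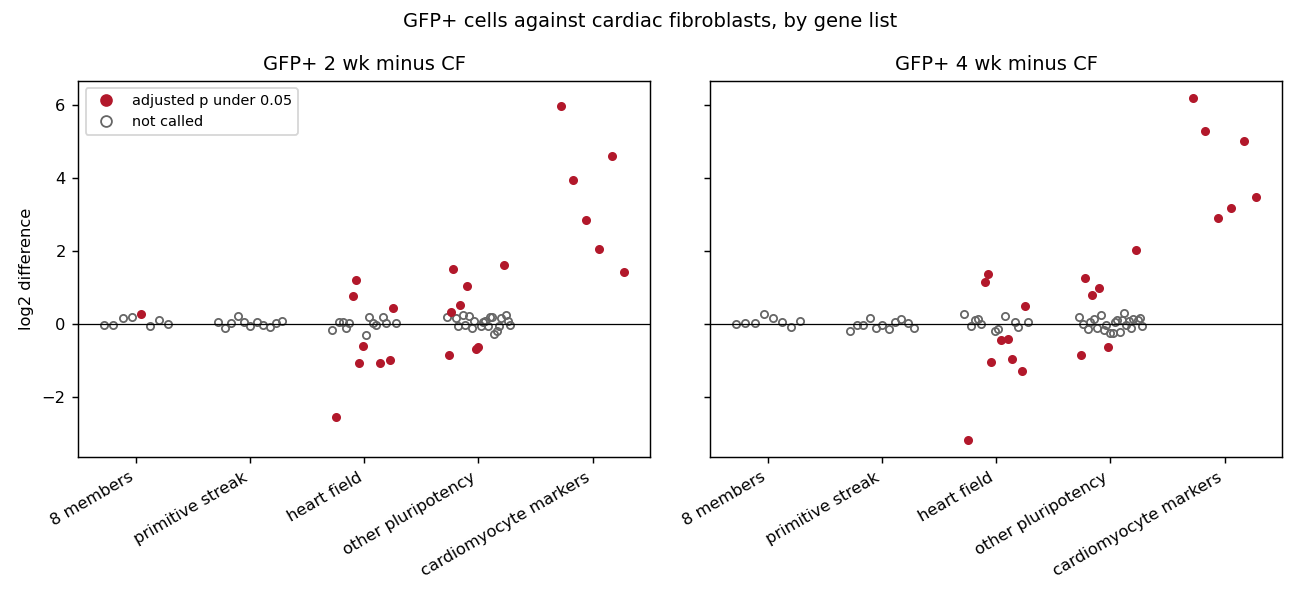
Log2 difference of GFP+ cells from CF at 2 weeks (left) and 4 weeks (right) for each measured gene of the 8 described here, 3 related lists and 6 cardiomyocyte markers; red points have an adjusted p under 0.05. The 8 genes and the primitive streak genes stay within 0.3 of 0, while the cardiomyocyte markers lie from 1.42 to 6.20.

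**Figure D5:**
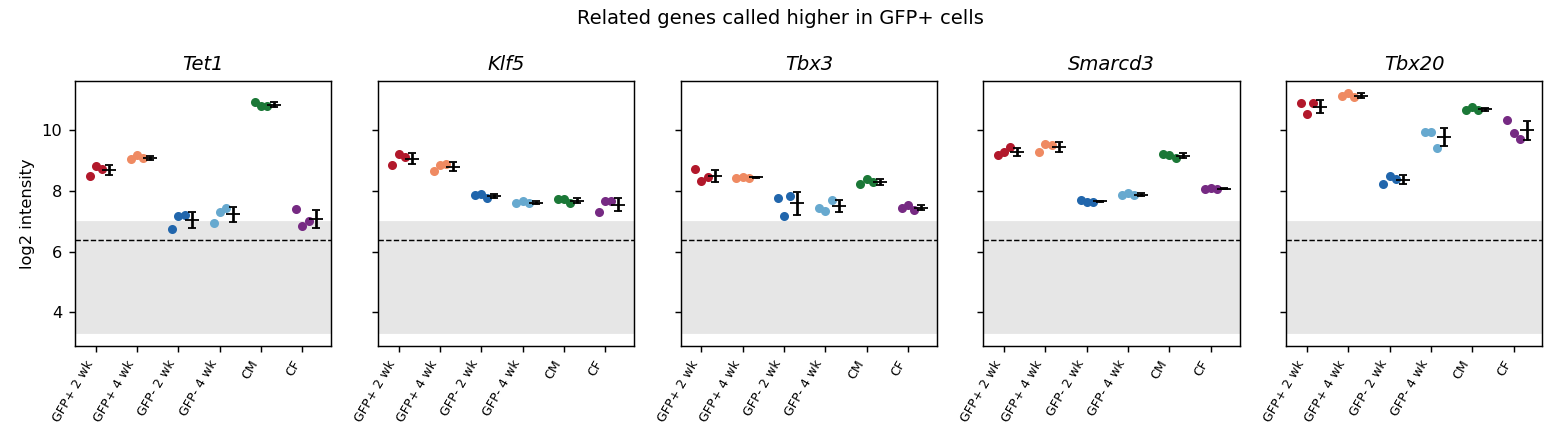
Log2 intensity of Tet1, Klf5, Tbx3, Smarcd3 and Tbx20 in each of 18 arrays (points) with group means and SD (black, n = 3), the grey band and the dashed line as in the plot of the 8 genes. All 5 genes lie above the band in GFP+ cells, and Klf5 is the gene whose CM mean (7.68) lies closest to that of CF (7.55).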

How the data were processed

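The authors deposited log2 intensities per probe set for 18 arrays, summarised with RMA per the submitters' processing notes, a method that corrects background and normalizes the arrays together. Its software is not given in the sources used here. Of 28682 probe sets, 21755 name 1 gene by GEO's platform annotation, 1592 several and 5335 none. A gene with several probe sets was read from the brightest by its mean. Array medians ran from 7.32 to 7.45 log2, and precision is limited by how many arrays each group has.

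A model with group as its only term was fitted to 19912 genes (limma 3.58.1 in R 4.3.3, lmFit and eBayes). In 11 comparisons, two-sided p-values were adjusted by Benjamini-Hochberg over all genes and called at 0.05. The fit was tested on simulated data. The members, lists and tests were chosen with earlier results of these data known. Named from the lists are Pou5f1, Nkx2-5, 5 cardiac genes as a check of scale and, in each comparison of GFP+ cells with CF or GFP- cells, up to 4 called genes with the largest difference. Hcn4, Tfcp2l1, Klf4, Eya1, Osr1, Foxc1, Dcn and a few further values were chosen after they were seen. Where a group mean was below the background limit of 6.38, a fold is given as a bound against that limit. Some listed genes are not reported here.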

Additional observations from a re-analysis of the deposited data

Results flagged for a closer look

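From 2 to 4 weeks, 6 of the 60 measured genes of the related lists changed in GFP+ cells otherwise than in GFP- cells, by a test of the difference itself, a limma contrast added after the data had been seen. It calls 3.94% of all genes and 0 of the 8 progenitor and pluripotency genes (0 of 8 at an unadjusted p under 0.05, no other tool run). Pdgfra was lower at 4 weeks in GFP+ cells (-0.64 log2) and higher in GFP- cells (0.65), a difference of -1.29 ± 0.17 (SE, adjusted p = 0.000273). The mean of the 6 other fibroblast markers was 8.52 at 4 weeks and 9.17 at 2 weeks in GFP+ cells, beside 8.97 and 9.14 in GFP- cells. Of these 6, 4 were lower at 4 weeks in GFP+ cells and 0 higher, while 3 were lower and 1 higher in GFP- cells, and Dcn alone was called by the test of the difference (-1.33 ± 0.19, adjusted p = 0.000469). Foxc2, a forkhead factor of mesoderm, differed by -1.585 ± 0.21 (-0.64 in GFP+ cells and 0.94 in GFP- cells, adjusted p = 0.00022). Foxc1, its paralog, differed by -0.84 ± 0.19 (adjusted p = 0.016), with 0.17 in GFP+ cells, which did not pass the test, and at least 0.65 in GFP- cells. The 2-week means of Foxc1 in GFP+ (6.34) and GFP- cells (6.02) are both below background, so the size of this difference rests on values below the limit. Bmp4 was 1.27 higher at 4 weeks in GFP- cells and did not pass the test in GFP+ cells (-0.29), a difference of -1.556 ± 0.22 (adjusted p = 0.000335). Tbx20 was 1.40 higher at 4 weeks in GFP- cells, beside 0.37 in GFP+ cells (difference -1.04 ± 0.21, adjusted p = 0.00736). Kdr differed the other way, by 0.87 ± 0.21 (0.45 in GFP+ cells and -0.42 in GFP- cells, adjusted p = 0.0187). The mean of 5 endothelial markers was 7.15 at 4 weeks and 6.77 at 2 weeks in GFP+ cells, beside 9.17 and 7.90 in GFP- cells. The part of these markers was not tested.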

How the results depend on the processing

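Direction was followed for the called genes of the 8 and for the list genes with the largest called differences, and none of these reversed. Small differences that were not called could change sign. With array weights, Zfp42 against CF at 4 weeks went from -0.08 to 0.04 log2, and Mesp1 against CF at 2 weeks from -0.04 to 0.02. Of the counts recomputed, 211 stayed within 1.5 times and 46 moved. With array weights, the genes called of 8 numbered 2 in GFP+ cells against CF at 2 weeks, 2 at 4 weeks, 1 against GFP- cells at 2 weeks, 3 at 4 weeks, 1 from 2 to 4 weeks in GFP+ cells, 3 in GFP- cells, 1 in GFP- cells against CF at 2 weeks, 2 in GFP+ cells against CM at 2 weeks and 1 at 4 weeks, and 4 by the F test. The count at 4 weeks against GFP- cells (1, Eomes) was 0 under quantile and cyclic loess normalization, with arrays centred on the receptor genes (chosen after seeing the data) and with the compared groups alone. It was also 0 with genes of low signal left out, but that setting removes Eomes itself and keeps 3 of the 8 genes, so it cannot tell whether the call holds. Cyclic loess gave 1 for GFP+ cells against CM at 2 weeks, and centring gave 0 by the F test. Leaving out 1 array at a time, the counts ran from 0 to 1 in GFP+ cells against CF at both times (1 at 4 weeks, Eomes, without CF replicate 1), against GFP- cells at 4 weeks and against CM at both times, from 1 to 2 in CM against CF, and from 1 to 2 by the F test (2 without GFP- replicate 2 at 4 weeks or CM replicate 3). The single genes were Zfp42 without GFP+ replicate 2 at 2 weeks, Sox2 without CM replicate 2 and Mesp1 without CM replicate 3. Against the median of the receptor genes as the limit, 8, 7, 8, 8, 7 and 8 of the 8 genes lay above it in GFP+ cells at 2 and 4 weeks, GFP- cells at 2 and 4 weeks, CM and CF, and against their 95th percentile 2, 1, 1, 1, 2 and 1. A limit from all probe sets (chosen after seeing the data) gave 5 in GFP+ cells at 2 weeks and 5 in CF. Tbx1 was called in CM against CF under all 16 other settings run. The cause of these changes was not tested.

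Over all genes, the calls from 2 to 4 weeks numbered 2297 in GFP+ cells, against 5985 with array weights, 1309 with centring, 1421 without 2-week replicate 3, 1289 without 4-week replicate 2 and 1486 with the compared groups alone. In GFP- cells they numbered 3465, against 6087 with weights and 2256 with centring. GFP- cells against CF gave 4520 at 2 weeks and 2286 at 4 weeks, against 7398 and 3720 with weights. In GFP+ cells against CF and against GFP- cells, array weights raised the calls over all genes at both times as well. The added calls among the 8 genes with array weights came with these rises. Replicate numbers did not pair the arrays: in 0 of 11 comparisons did every same-numbered pair deviate together (r from -0.301 to 0.454). With the replicate number as a block, the 8 genes gave the same counts in all 11 comparisons and the F test (1 in GFP+ cells against CF at 2 weeks).

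No array of a progenitor or stem cell sets the level these probe sets can reach, and signal near background compresses differences. The share of expressing cells below which a gene goes unseen is therefore unknown here.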
